A study of Mus musculus with 23 samples.

Results

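Interferon-stimulated antiviral genes, which cells switch on in response to interferon, were followed in dendritic cells of mouse spleen, and 40 of them were chosen by gene symbol. Of the 40, 37 were read by a probe set assigned to that gene alone, among 19938 genes with such a probe set on the array, and all 37 entered the tests, which covered 12157 genes. Isg15 and Oas1g were read only by probe sets that name another gene as well, and Ifi44 had no probe set in the gene table used here, so these 3 members have no value.

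Gene expression was measured on 23 Affymetrix arrays, each carrying RNA from sorted splenic conventional dendritic cells of type 1 (cDC1) or type 2 (cDC2) or plasmacytoid dendritic cells (pDC). Donor mice either carried a conditional Bcl6 knockout (cKO), a gene which encodes a zinc finger transcriptional repressor, with 4 arrays for cDC1 and 5 each for cDC2 and pDC, or were wild type (WT), with 3 arrays for each cell type. The sources used here do not give the Cre driver, strain, age or sorting gates, and no treatment or infection is labelled. Whether arrays within a group stand for different animals is not labelled. The p-values therefore reflect no more than array-to-array spread, possibly technical, and precision is set by how few arrays there are.

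Type I interferons bind the receptor IFNAR1/IFNAR2 and signal through the kinases JAK1 and TYK2. Transcription factors at the end of this pathway bind the interferon-stimulated response element (ISRE) in the promoters of antiviral genes, whose products sense viral nucleic acid, degrade or sequester viral RNA, block entry and budding, or tag proteins with the ubiquitin-like ISG15. In spleen, pDC are known as strong producers of type I interferon, cDC1 for presenting antigen to CD8 T cells and cDC2 for presenting it to CD4 T cells.

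The ISRE is a sequence through which many interferon-stimulated genes are known to respond, so copies of its core in the members' promoters are shown. RefSeq promoters of 300 bases (250 before and 50 after the start, build GRCm38.p6) were listed for 29 of the 40 members, as 36 promoters. The core TTTCNNTTTC, searched on both strands, was present in 14 of these 36 promoters, belonging to 13 members, and in 3.44% of all 32851 promoters. The following lines give, for tested members, the window around the core nearest the 5′ end of the promoter, in the direction of the gene and with the core, or cores that overlap or follow within the window, in capitals.
Ifit1 (chr19:34640775-34640804, plus strand): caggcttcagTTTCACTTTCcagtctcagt
Ifit3 (chr19:34583363-34583392, plus strand): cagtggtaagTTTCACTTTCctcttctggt
Oas1a (chr5:120907526-120907555, minus strand): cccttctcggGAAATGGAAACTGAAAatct
Oas3 (chr5:120777715-120777744, minus strand): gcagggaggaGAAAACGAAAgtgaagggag
Rsad2 (chr12:26456553-26456582, minus strand): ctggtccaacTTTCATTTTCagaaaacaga
Ifih1 (chr2:62646206-62646233, minus strand): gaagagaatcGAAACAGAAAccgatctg
Ddx58 (chr4:40239804-40239833, minus strand): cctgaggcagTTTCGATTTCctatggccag
Trim21 (chr7:102565450-102565479, minus strand): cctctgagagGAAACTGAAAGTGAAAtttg
Trim30a (chr7:104465210-104465239, minus strand): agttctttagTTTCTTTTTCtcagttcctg
Trim30a (chr7:104446104-104446133, minus strand): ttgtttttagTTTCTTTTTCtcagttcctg
Eif2ak2 (chr17:78882535-78882564, minus strand): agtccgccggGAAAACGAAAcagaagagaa
Ifitm3 (chr7:141010723-141010752, minus strand): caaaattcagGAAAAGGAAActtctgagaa
Lines with GAAA repeats hold the core on the opposite strand. A promoter of Trim30a is listed at each of its starts. The core TTCNNNGAA, which STAT proteins and BCL6 are known to bind, was present in 7 of the 36 member promoters and in 8.3% of all promoters (Adar, Eif2ak2, Ifi35, Ifit2, Ifitm3, Isg20 and Oas1a). These matches describe letters in a window and are not measured binding sites.

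Of the members called in a genotype comparison, 3 have a listed promoter. The 250 bases before the start of Oasl2, Ddx58 and Xaf1 are shown because these genes moved with genotype, and no base is in capitals because neither core occurs in them. The ISRE core of Ddx58 given above begins at base 3 after the start.
Oasl2 (chr5:114896684-114896933, plus strand): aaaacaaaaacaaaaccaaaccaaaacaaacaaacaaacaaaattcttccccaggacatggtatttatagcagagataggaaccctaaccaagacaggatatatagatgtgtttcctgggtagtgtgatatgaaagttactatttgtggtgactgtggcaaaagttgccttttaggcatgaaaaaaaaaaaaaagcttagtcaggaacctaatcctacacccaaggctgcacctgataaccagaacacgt
Ddx58 (chr4:40239826-40240075, minus strand): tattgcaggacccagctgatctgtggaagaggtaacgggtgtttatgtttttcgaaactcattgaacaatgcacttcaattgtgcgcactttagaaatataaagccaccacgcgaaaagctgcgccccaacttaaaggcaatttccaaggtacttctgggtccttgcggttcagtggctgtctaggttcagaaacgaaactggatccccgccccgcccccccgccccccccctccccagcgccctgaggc
Xaf1 (chr11:72301379-72301628, plus strand): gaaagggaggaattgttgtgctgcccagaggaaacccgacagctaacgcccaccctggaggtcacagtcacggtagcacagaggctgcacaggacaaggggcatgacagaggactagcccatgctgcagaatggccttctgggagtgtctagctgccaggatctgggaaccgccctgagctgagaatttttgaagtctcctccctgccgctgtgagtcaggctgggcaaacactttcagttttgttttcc

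List means of the cDC1 and pDC markers were highest in the cells so labelled, while those of the cDC2 markers in cDC2 overlapped with pDC. All 10 cDC1 markers exceeded the array median in both genotypes of cDC1, with list means of 9.76 to 10.6 on the log2 scale in cKO cDC1 and of 9.81 to 10.4 in WT cDC1. All 8 measured pDC markers did so in pDC, with list means of 10.8 to 11.6 in cKO pDC and of 10.6 to 11.5 in WT pDC, and for the cDC2 markers it was 9 of 10 in cKO cDC2 and 10 of 10 in WT cDC2. The WT array numbered 1 of each cell type had Xist, the RNA that silences 1 X chromosome in female cells, at log2 levels of 10.9 or more, while the other 20 arrays read 5.07 or less, all cKO arrays included. Calls of members are therefore given also without these 3 arrays, while counts above 0 and counts without overlap are not. Bcl6 itself was not lower in the mutant conventional cells: it read 8.39 in cKO cDC1 and 7.42 in WT cDC1 (log2 means, limma adjusted p = 0.598), 8.0 in cKO cDC2 and 7.31 in WT cDC2, and 5.72 in cKO pDC and 5.87 in WT pDC. The sources used here do not say whether the probe set reads the deleted exons, so it does not check the labels, and cKO means arrays labelled so.

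Across the 37 tested members the mutant cells lay above the wild type in nearly every gene. In cDC1, 35 of 37 members were higher in cKO than in WT, with a median log2 difference of 0.78, against 62.5% of all tested genes and a median of 0.06. In cDC2 it was 37 of 37 with a median of 0.53, against 64% of all genes and a median of 0.07. In pDC it was also 37 of 37 with a median of 0.78, against 59.3% of all genes and a median of 0.05. With quantile normalization the counts above 0 were 33, 34 and 36, and the medians were 0.70, 0.46 and 0.73. The members were chosen with earlier results of these data known, so the contrast with all genes describes the list and is no test. In these sorted bulk samples a gene that is higher in every cell cannot be told apart from one that is high in more of the cells.

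On single arrays the same pattern was visible in the members' median minus the median of all tested genes. That value was 0.80 to 1.07 on the 4 cKO cDC1 arrays, against -0.42 to 0.37 on the 3 WT cDC1 arrays. It was 0.94 to 1.22 on the 5 cKO pDC arrays, against 0.05 to 0.32 on the 3 WT pDC arrays. In cDC2 the genotypes overlapped, at 1.12 to 1.70 on the cKO arrays and 0.62 to 1.40 on the WT arrays. The ranges were thus apart in cDC1 and pDC and shared in cDC2, where WT cells already stood high. The overlap in cDC2 came from WT cDC2 array 1 alone, at 1.40, which is one of the high-Xist arrays. WT cDC2 arrays 2 and 3, at 1.03 and 0.62, lay below every cKO cDC2 array.

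**Figure D1:**
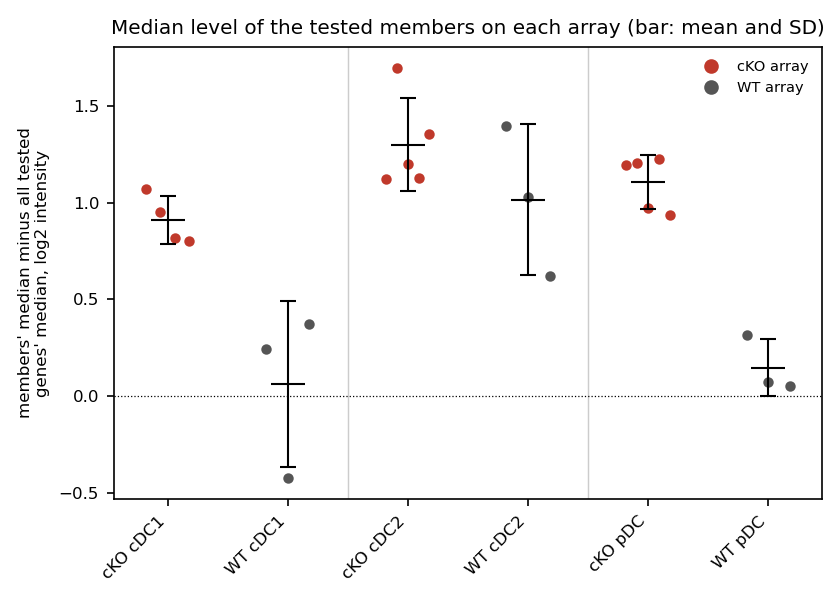
Median log2 intensity of the 37 tested members minus the median of all 12157 tested genes, 1 point per array, with mean and SD of each group. The 4 cKO cDC1 arrays (0.80 to 1.07) and the 5 cKO pDC arrays (0.94 to 1.22) lie above all WT arrays of the same cell type. The cKO and WT cDC2 arrays overlap through WT cDC2 array 1 alone, a high-Xist array.

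Few single members passed the test over all genes. A gene is called here when its two-sided limma p, adjusted by Benjamini-Hochberg over the 12157 genes, is under 0.05. In cDC1, 5 members were called higher and 0 lower (0.814% of all genes were called higher and 0.0165% lower). In cDC2, 0 members were called by limma (1.16% of all genes were called higher and 0.403% lower), with 9 at an unadjusted p under 0.05. In pDC, 1 member was called higher and 0 lower (0.0329% of all genes, 4 genes in all, were called higher and 0% lower). At an unadjusted p under 0.05, 23 members were higher in cDC1 (2.62% of all genes) and 22 in pDC (1.35%), against 4.71% of all genes for the 9 in cDC2, and in each of the 3 cell types 0 members were lower at that p.

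**Figure D2:**
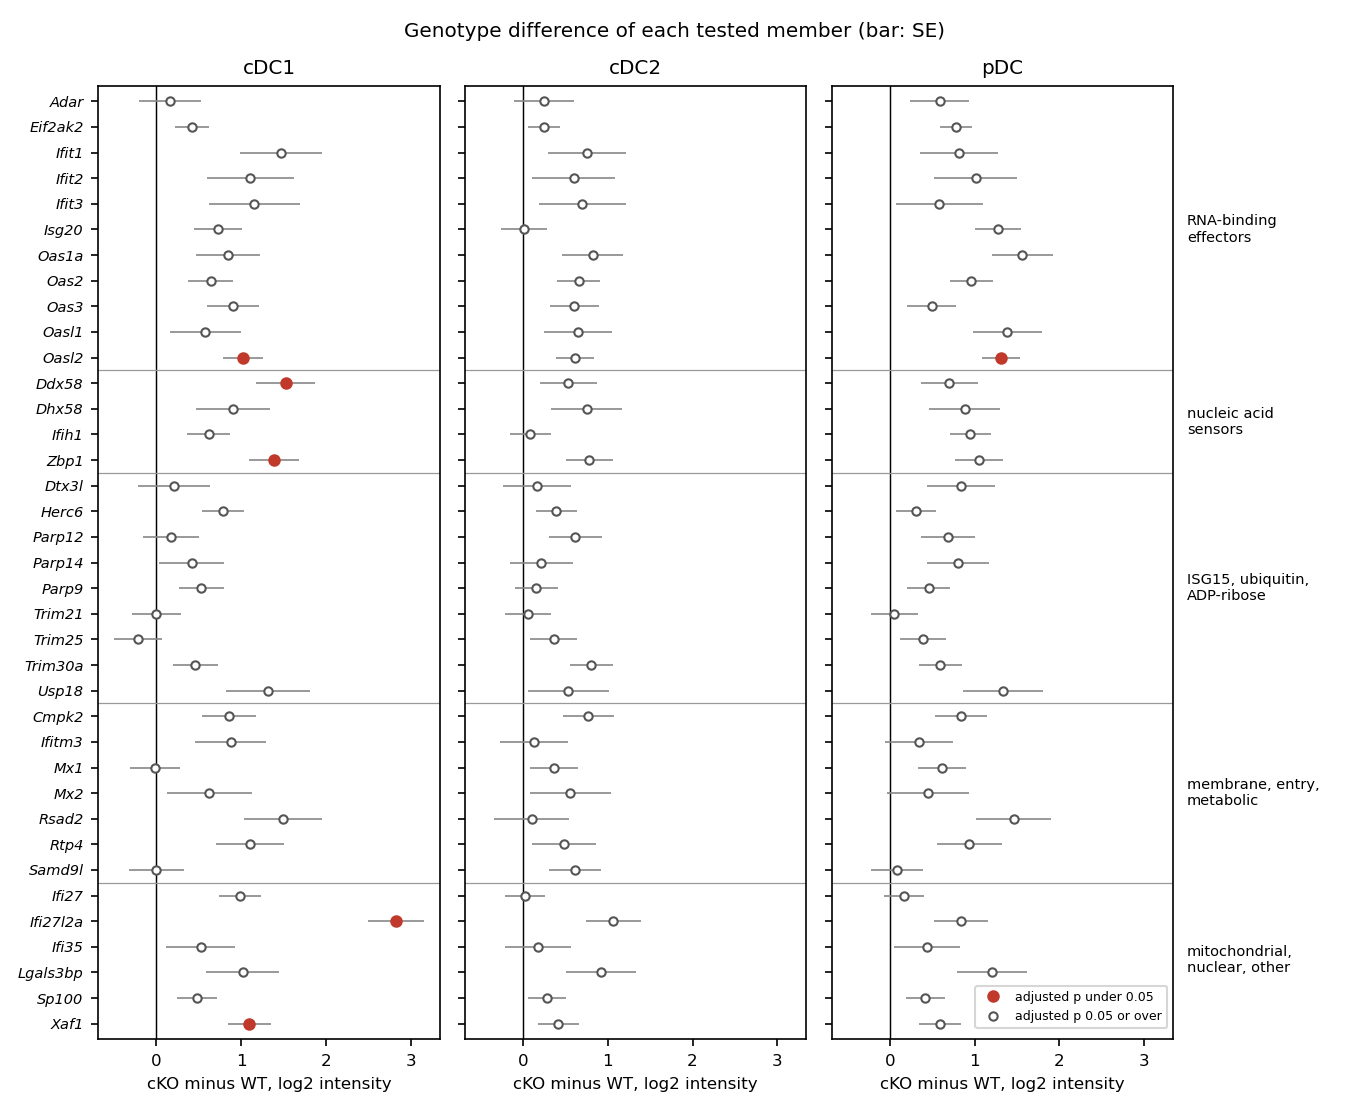
Log2 difference, cKO minus WT, of each of the 37 tested members in cDC1, cDC2 and pDC, with limma standard errors, ordered by role. Filled points passed the adjusted p, which were 5 members in cDC1, 0 in cDC2 and 1 in pDC, and nearly all points lie right of 0.

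Whether the genotypes overlap was also counted without a model. In cDC1, 18 members had every cKO array above every WT array (2.94% of all genes) and 1, Trim25, had every cKO array below every WT array (1.28%). In cDC2 the count above was 2, Trim30a and Zbp1 (3.27%), and in pDC it was 9 (0.477%), with 0 below in both (1.45% and 0.189%). Zbp1 was the 1 member with cKO arrays above WT arrays in all 3 cell types.

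Among the RNA-binding effectors, which degrade, edit or sequester RNA, 11 members were tested and Oasl2 was called in cDC1 and in pDC. Oasl2 encodes an oligoadenylate synthetase-like protein with ubiquitin-like domains. Its log2 intensity was 6.60, 6.55, 6.37 and 6.27 in cKO cDC1 and 5.40, 5.18 and 5.68 in WT cDC1. Every cKO cDC1 array lay above every WT cDC1 array. In pDC it was 8.80, 9.36, 8.85, 9.32 and 9.16 in cKO cells and 7.97, 7.53 and 7.85 in WT cells, again without overlap. In cDC2 it was 7.58, 8.76, 8.25, 8.09 and 8.31 in cKO cells and 7.91, 7.42 and 7.42 in WT cells, where cKO array 1 fell below WT array 1. Oasl2 rose 2.04-fold in cKO cDC1 (log2 1.03 ± 0.24, SE, limma adjusted p = 0.0332) and 2.49-fold in cKO pDC (1.32 ± 0.23, adjusted p = 0.0266). The group means ran from cKO pDC over cKO cDC2, WT pDC, WT cDC2 and cKO cDC1 down to WT cDC1, and only the steps on either side of cKO cDC1 and that from cKO pDC to cKO cDC2 were between ranges that do not overlap. The call in cDC1 was lost without WT cDC1 array 1 or 2 or cKO cDC1 array 1, 2 or 3 (highest limma adjusted p 0.304), and that in pDC without WT pDC array 1, 2 or 3 or cKO pDC array 2, 4 or 5 (highest 0.525). Each was also lost under 6 of 14 other settings, among them centring, the compared groups alone and no high-Xist arrays. The highest limma adjusted p over these settings was 0.157 in cDC1 and 0.999978 in pDC.

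The other RNA-binding effectors lay above 0 in all 3 cell types without passing the adjusted test. The classical oligoadenylate synthetases, which make the messenger that activates RNase L, had log2 differences of 0.84, 0.82 and 1.56 for Oas1a, of 0.64, 0.66 and 0.96 for Oas2 and of 0.90, 0.61 and 0.49 for Oas3 in cDC1, cDC2 and pDC. Oasl1, which in mouse represses translation of IRF7, had 0.58, 0.65 and 1.38. The IFIT proteins bind foreign RNA ends, and Ifit1 had differences of 1.47, 0.75 and 0.82, Ifit2 of 1.11, 0.60 and 1.01, and Ifit3 of 1.16, 0.70 and 0.58. Isg20, an exoribonuclease, had 0.73, 0.01 and 1.28, so that its cDC2 value stood near 0. Eif2ak2, the kinase PKR that halts translation on double-stranded RNA, had 0.42, 0.24 and 0.78, and the RNA-editing enzyme Adar 0.16, 0.25 and 0.59. Ifit1, whose ISRE window is printed above, and Oas3 were under the array median on all 3 WT cDC1 arrays and above it on all 4 cKO cDC1 arrays.

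All 4 sensors of viral nucleic acid were at an unadjusted p under 0.05 in cDC1 and in pDC, and 2 of them were called in cDC1. Zbp1, which binds Z-form nucleic acid and can trigger necroptosis, had log2 intensities of 8.19, 7.93, 8.42 and 8.01 in cKO cDC1 and of 6.82, 6.08 and 7.33 in WT cDC1. It had 7.33, 7.98, 7.34, 7.72 and 8.16 in cKO cDC2 and 6.85, 6.76 and 7.17 in WT cDC2. In pDC it had 6.43, 6.79, 6.43, 7.46 and 7.20 in cKO cells and 6.13, 5.61 and 5.70 in WT cells. The genotypes did not overlap in any of the 3 cell types, though the WT cDC1 arrays were themselves spread by more than 1 log2 unit. Zbp1 rose 2.62-fold in cKO cDC1 (1.39 ± 0.29, SE, limma adjusted p = 0.0140), and its differences of 0.78 ± 0.28 in cDC2 and 1.05 ± 0.28 in pDC were not called. The call was lost without WT cDC1 array 1 or 2 or cKO cDC1 array 3 (highest limma adjusted p 0.246), and under 2 of 14 other settings, the compared groups alone and no high-Xist arrays (highest 0.0812).

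Ddx58 encodes RIG-I, the helicase that senses uncapped double-stranded RNA. It read 6.45, 5.67, 6.25 and 6.43 in cKO cDC1 and 4.82, 4.66 and 4.55 in WT cDC1, where all 3 arrays were under the array median. In cDC2 it read 8.26, 9.12, 7.18, 7.97 and 8.30 in cKO cells and 8.19, 7.79 and 6.92 in WT cells, and in pDC 5.77, 6.38, 5.80, 6.73 and 6.06 in cKO cells and 5.55, 5.21 and 5.58 in WT cells. The ranges were apart in cDC1 and pDC and overlapped widely in cDC2. Ddx58 rose 2.88-fold in cKO cDC1 (1.53 ± 0.35, SE, limma adjusted p = 0.0320), a call lost without any 1 of the 3 WT cDC1 arrays or without cKO cDC1 array 1, 3 or 4 (highest adjusted p 0.157). It was also lost under 7 of 14 other settings, among them quantile normalization, centring, the offset, no filter and the random replicate block (highest limma adjusted p 0.161). Ifih1, encoding the sensor MDA5, had differences of 0.62, 0.09 and 0.95 in cDC1, cDC2 and pDC, and Dhx58, encoding their regulator LGP2, had 0.91, 0.75 and 0.88, none of them called.

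Of the 6 mitochondrial, nuclear and other members, 2 were called in cDC1, and Ifi27l2a had a larger difference there than any other member. Ifi27l2a encodes a small hydrophobic protein of the ISG12 family. Its log2 intensity was 9.82, 10.41, 10.57 and 10.81 in cKO cDC1 and 7.45, 7.54 and 7.75 in WT cDC1. The lowest cKO cDC1 array thus stood far above the highest WT cDC1 array. It was 9.87, 10.46, 10.69, 11.13 and 11.10 in cKO cDC2 and 9.03, 9.80 and 9.92 in WT cDC2, and in pDC 10.72, 11.07, 11.54, 11.10 and 12.04 in cKO cells and 9.94, 10.61 and 10.81 in WT cells. In both of these cell types 1 cKO array lay within the WT range. Ifi27l2a rose 7.10-fold in cKO cDC1 (2.83 ± 0.33, SE, limma adjusted p = 1.06e-05), and it was the 1 member that stayed called whichever array was left out (highest adjusted p 0.000226) and without the high-Xist arrays. Its differences in cDC2, 1.07 ± 0.32, and in pDC, 0.84 ± 0.32, were not called.

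Xaf1, which encodes an antagonist of the caspase inhibitor XIAP, was the other member of that group to be called. It read 5.98, 5.08, 5.88 and 5.94 in cKO cDC1 and 4.51, 4.67 and 4.68 in WT cDC1, where all 3 arrays were again under the array median. It read 5.64, 6.24, 5.84, 6.31 and 6.23 in cKO cDC2 and 5.67, 5.63 and 5.61 in WT cDC2, and 5.70, 6.35, 5.51, 6.70 and 6.02 in cKO pDC and 5.38, 5.50 and 5.51 in WT pDC. cKO cDC1 array 2 lay below the other cKO cDC1 arrays, yet above all WT cDC1 arrays. Xaf1 rose 2.14-fold in cKO cDC1 (1.10 ± 0.26, SE, limma adjusted p = 0.0391), a call lost without any 1 of the WT cDC1 or WT cDC2 arrays or without cKO cDC1 array 1, 3 or 4 (highest adjusted p 0.229). It was also lost under 6 of 14 other settings, both replicate blocks among them (highest limma adjusted p 0.325). Ifi27, of the same family as Ifi27l2a, had differences of 0.99, 0.02 and 0.16 in cDC1, cDC2 and pDC (limma adjusted p = 0.0697 in cDC1). Lgals3bp, a secreted glycoprotein, had 1.02, 0.92 and 1.21, the nuclear body protein Sp100 had 0.49, 0.28 and 0.42, and Ifi35 had 0.53, 0.18 and 0.44.

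**Figure D3:**
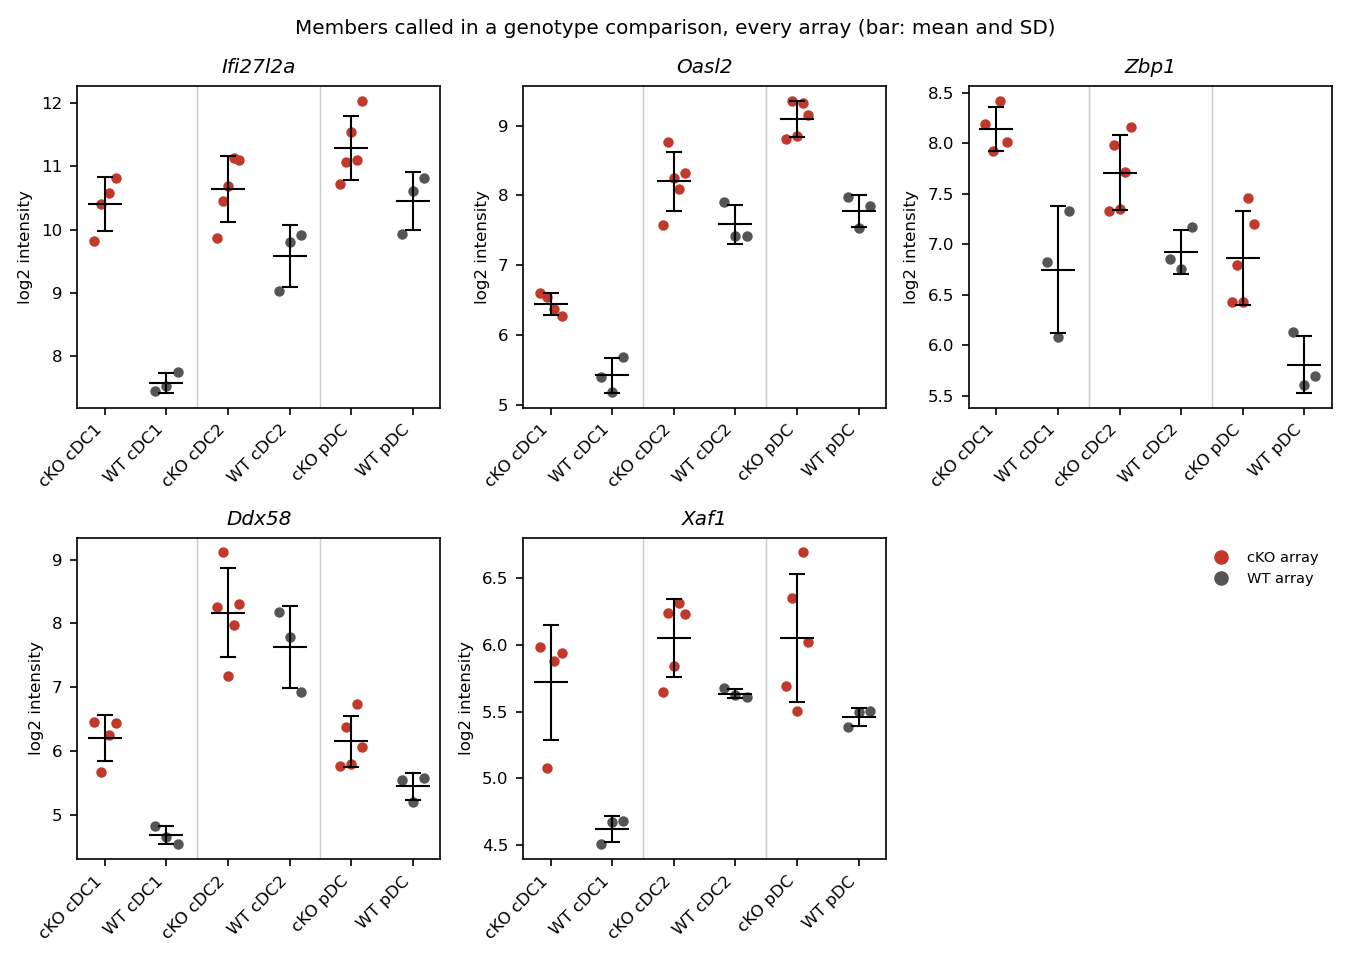
Log2 intensity of the 5 members called in a genotype comparison, 1 point per array in each of the 6 groups, with mean and SD. In cDC1 the cKO arrays lie above the WT arrays in all 5 genes, the pDC genotypes are apart for Oasl2, Zbp1 and Ddx58 and barely so for Xaf1, and Ifi27l2a shows the widest gap in cDC1.

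The members that act through ISG15, ubiquitin or ADP-ribose were the group with the smallest median in cDC1, 0.42, and 0 of 9 were called in any cell type. Usp18, which removes ISG15 and restrains the interferon receptor, had differences of 1.32, 0.53 and 1.33 in cDC1, cDC2 and pDC. Herc6, the ISG15 ligase of mouse, had 0.78, 0.39 and 0.31. Trim30a had 0.46, 0.81 and 0.59, and in cDC2 it read 9.97, 10.43, 9.70, 9.92 and 10.15 in cKO cells and 9.37, 9.14 and 9.17 in WT cells, which did not overlap (limma adjusted p = 0.180). Trim25, the ubiquitin ligase of RIG-I, had -0.21, 0.36 and 0.39, and the cytosolic antibody receptor Trim21 had 0.00, 0.06 and 0.05. The ADP-ribosyltransferase genes had 0.18, 0.62 and 0.69 for Parp12, 0.42, 0.22 and 0.80 for Parp14 and 0.53, 0.15 and 0.46 for Parp9, and Dtx3l, whose product works with PARP9, had 0.21, 0.17 and 0.84.

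Membrane, entry and metabolic effectors had 0 of 7 members called in any cell type. Rsad2, which encodes viperin, an enzyme that makes a chain-terminating nucleotide, had differences of 1.5, 0.10 and 1.46 in cDC1, cDC2 and pDC, so that its cDC2 value again stood near 0. Cmpk2, a mitochondrial nucleotide kinase, had 0.85, 0.77 and 0.84, and Rtp4, a receptor transport protein, had 1.10, 0.49 and 0.94. Ifitm3, which blocks fusion of viral and endosomal membranes, had 0.88, 0.13 and 0.34. The dynamin-like GTPases had -0.01, 0.36 and 0.61 for Mx1 and 0.63, 0.56 and 0.45 for Mx2, and Samd9l had 0.00, 0.61 and 0.09.

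**Figure D4:**
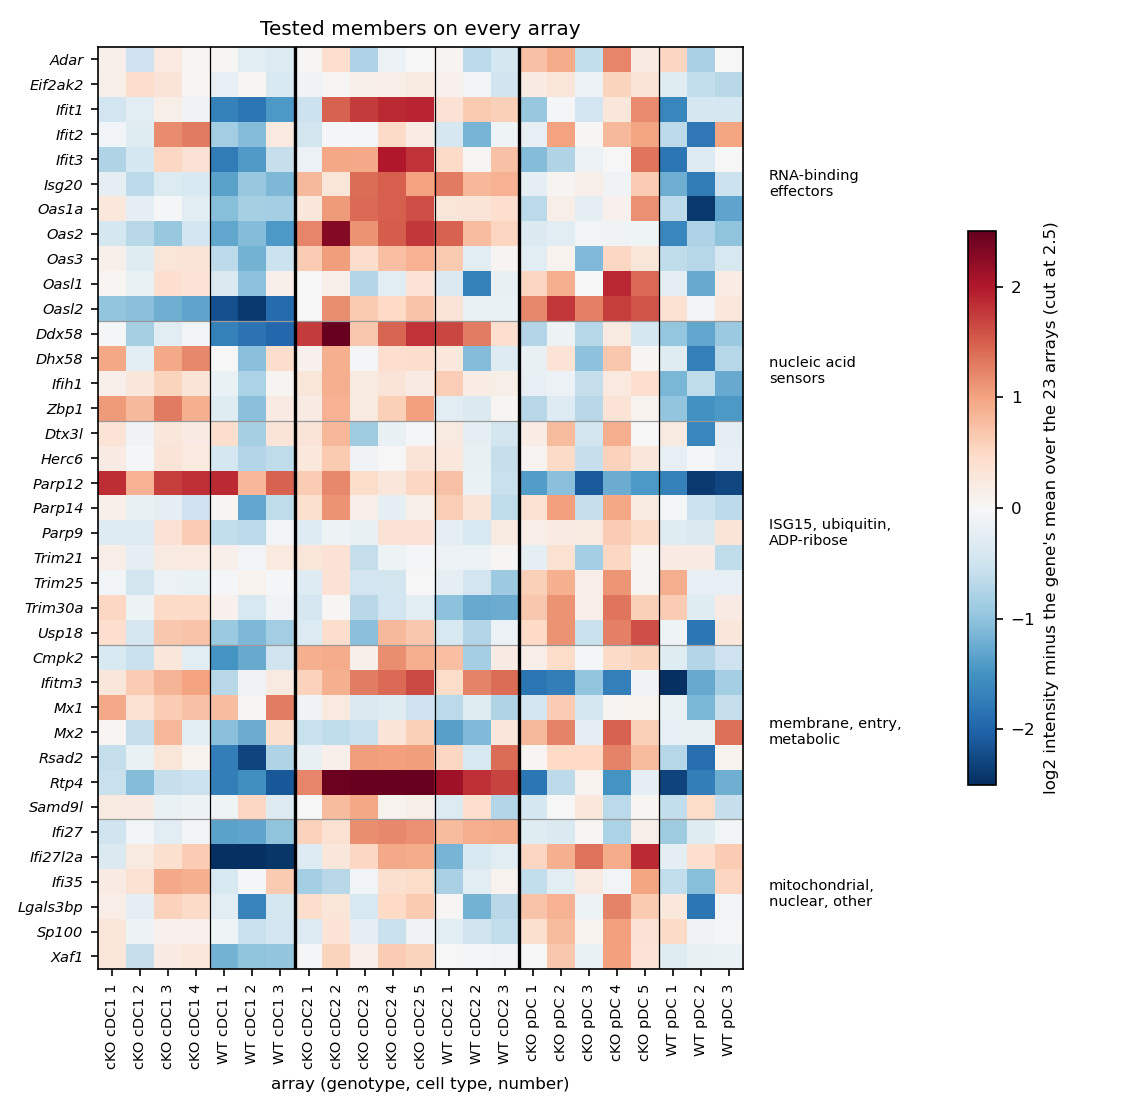
Log2 intensity of the 37 tested members on each of the 23 arrays, minus that gene's mean over all arrays, with columns by cell type and genotype and rows by role, the colour saturating at the ends of the scale. The 3 WT cDC1 columns are low for many members, the cDC2 columns of both genotypes are high for Rtp4, Ddx58 and Oas2, and the pDC columns are low for Parp12.

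Whether the genotype effect differs between cell types was tested directly. By limma, 0 members were called in the difference between the effects in cDC1 and cDC2 (0.28% of all genes), in cDC1 and pDC (0.329%) or in cDC2 and pDC (0.485%), with 3, 2 and 4 members at an unadjusted p under 0.05 (3.27%, 2.39% and 3.78% of all genes). The smallest adjusted p was that of Ifi27l2a, whose effect was larger in cDC1 than in pDC by 1.99 ± 0.46 (SE, limma adjusted p = 0.0730) and larger in cDC1 than in cDC2 by 1.76 ± 0.46 (adjusted p = 0.176). Isg20 had an effect smaller in cDC2 than in pDC, at -1.27 ± 0.38 (adjusted p = 0.309). The call for Ifi27l2a depended on the processing: its effect in cDC1 was called different from that in pDC, and from that in cDC2, with quantile normalization, with each array centred, with array weights and with 2 processing sets (arrays parted at the gap between their medians) as a term. Its difference between cDC1 and pDC was also called without cKO cDC1 array 1, cKO cDC2 array 1, WT pDC array 1 or cKO pDC array 5 (1 member each). A value that misses the threshold does not show equal effects.

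In wild-type cells the members were not at 1 common baseline. Against WT cDC2, WT cDC1 were lower in 10 members and higher in 3 (3.04% and 3.02% of all genes). Rtp4 read 5.55, 5.74 and 5.15 in WT cDC1 and 9.39, 9.09 and 8.96 in WT cDC2, a difference of -3.67 ± 0.43 (SE, limma adjusted p = 2.00e-06). Ddx58 differed by -2.96 ± 0.37, Oas2 by -2.21 ± 0.28 and Ifit1 by -2.18 ± 0.51 (all 4 among the 10 called lower). The remaining 6 called lower were Oasl2, Isg20, Rsad2, Ifi27, Ifi27l2a and Xaf1, with differences of -2.16 to -1.02. In the other direction, Parp12 was higher in WT cDC1 than in WT cDC2 by 1.39 ± 0.35, Mx1 by 1.26 ± 0.32 and Trim30a by 1.05 ± 0.29. These 3 calls were each lost without WT cDC1 array 1 or 3 or WT cDC2 array 3, and also without WT cDC2 array 2 for Parp12 and Trim30a and WT cDC2 array 1 for Mx1 (highest limma adjusted p 0.131). With the replicate number as a fixed or a random block, 18 members were called, the 13 among them (16.3% and 11.3% of all genes). This comparison shares the WT cDC1 arrays with the genotype comparison in cDC1.

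Against WT pDC, WT cDC1 were higher in 4 members and lower in 4 (8.37% and 5.14% of all genes). Parp12 read 9.11, 8.09 and 8.73 in WT cDC1 and 5.55, 4.85 and 4.98 in WT pDC, 3.52 ± 0.35 higher in cDC1. Ifi27l2a was lower in WT cDC1 by 2.88 log2 units and Oasl2 by 2.36, as the values above show, without overlap. Ifitm3 (1.43 ± 0.45) and Mx1 (1.33 ± 0.32) were higher and did not overlap, Zbp1 (0.94 ± 0.31) was higher with overlapping ranges, and Xaf1 (-0.84 ± 0.28) and Ifi27 (-0.80 ± 0.27) were lower. Zbp1, Xaf1 and Ifi27 had adjusted p of 0.0483, 0.0438 and 0.0480 and lost the call when any 1 of 15, 13 and 17 of the 23 arrays was left out. With the replicate number as a fixed block, 12 members were called in this comparison, the 8 among them and Mx2, Ddx58, Rsad2 and Dhx58 besides. Of all genes 22.5% were called under that setting. The call of Ifitm3 was lost without WT cDC1 array 2 or 3 or WT pDC array 1 (highest adjusted p 0.247), and that of Mx1 without WT cDC1 array 3 (adjusted p 0.0505).

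Against WT pDC, WT cDC2 were higher in 10 members and lower in 1 (7.93% and 4.8% of all genes). Rtp4, at 4.95, 5.54 and 6.05 in WT pDC against the cDC2 values above, differed by 3.63 ± 0.43. Ifitm3 read 11.41, 12.21 and 12.37 in WT cDC2 and 8.24, 9.71 and 10.12 in WT pDC, a difference of 2.64 ± 0.45. Ddx58 differed by 2.19 ± 0.37 and Isg20 by 2.17 ± 0.30, and Parp12, Oas2, Oas1a, Ifih1, Ifi27 and Zbp1 by 2.13 to 1.12. Trim30a was the 1 member lower in WT cDC2, at 9.37, 9.14 and 9.17 against 11.03, 10.11 and 10.62 in WT pDC (-1.36 ± 0.29, limma adjusted p = 0.00161). With the replicate number as a random block, 17 members were called in this comparison, the 11 among them (21.7% of all genes).

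**Figure D5:**
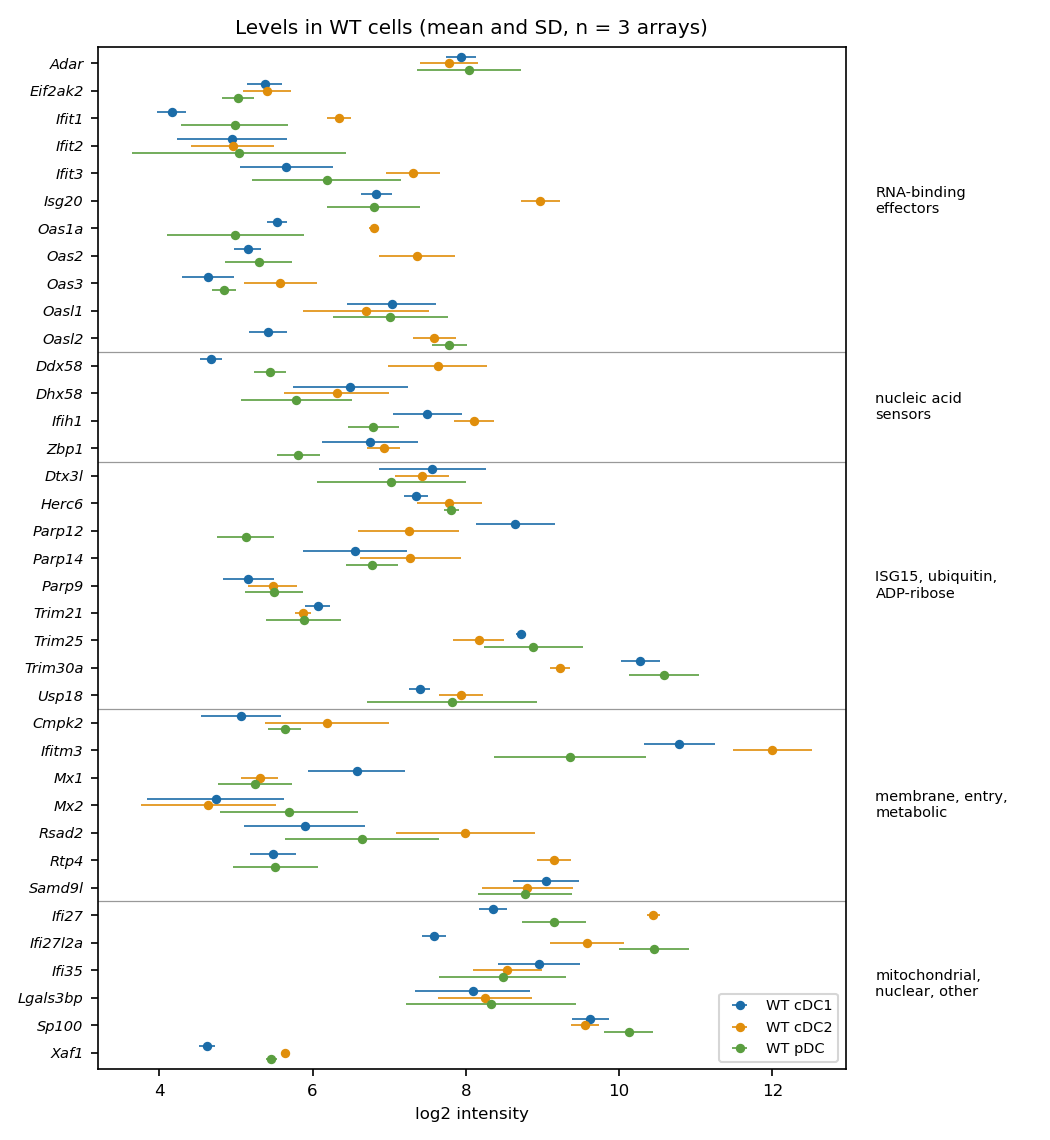
Log2 intensity of the 37 tested members in WT cDC1, WT cDC2 and WT pDC, as mean and SD of 3 arrays. Rtp4, Ddx58, Oas2 and Isg20 stand high in WT cDC2, Parp12 is highest in WT cDC1 and lowest in WT pDC, and Oasl2 and Ifi27l2a are low in WT cDC1; values of different genes are not on 1 common scale.

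Over the 37 members, WT cDC2 had the highest of the 3 wild-type means in 18, WT pDC in 11 and WT cDC1 in 8. WT cDC1 had the lowest mean in 18 members, WT pDC in 12 and WT cDC2 in 7. The baseline thus depended on the gene, with Rtp4 and Parp12 running in opposite directions between cDC1 and cDC2.

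Ligands, receptors, sensors and further targets of the pathway were read from lists that hold no member. Of the 19 interferon ligands, 15 had a probe set assigned to that gene alone, and 5 of these 15 passed the filter on low values. By limma 0 were called in any genotype comparison, with 0, 1 and 0 at an unadjusted p under 0.05 in cDC1, cDC2 and pDC. The antiviral cytokine Ifnl2 read 7.28 in cKO cDC2 and 6.83 in WT cDC2 (0.44 ± 0.21) and Ifna2 4.49 and 4.25. Of the receptor and signalling genes, 17 of 19 were tested and 0 were called in any genotype comparison by limma. Irf7, which drives the later wave of interferon transcription, read 9.74 in cKO cDC1 and 8.63 in WT cDC1 (1.11 ± 0.47) and 11.04 in cKO pDC and 9.51 in WT pDC (1.53 ± 0.45), neither of them called. Stat2 read 10.04 in cKO pDC and 9.04 in WT pDC (1.0 ± 0.35).

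Sensors upstream of interferon had 12 genes tested, and Tlr7, the endosomal receptor for single-stranded RNA, fell in cKO cDC2. Tlr7 averaged 6.48 in cKO cDC2 and 8.59 in WT cDC2 (-2.11 ± 0.32, limma adjusted p = 0.000368), and this effect differed from that in cDC1 and from that in pDC (adjusted p of 0.0352 and 0.0156, lost when any 1 of 10 and of 2 arrays was left out). In cDC1 of both genotypes Tlr7 averaged under the array median. A fall there could hardly be seen, so the difference from cDC1 does not show that cDC1 respond otherwise. Among 38 further interferon-stimulated genes that are no members, 5 were called higher in cKO cDC1, 4 in cKO cDC2 and 1 in cKO pDC, and 0 lower. The guanylate-binding Gbp3 and Gbp7 rose in cKO cDC1 (2.14 ± 0.37 and 2.51 ± 0.43) and in cKO cDC2 (1.98 ± 0.35 and 2.33 ± 0.41). Slfn1 rose in the same 2 cell types (1.39 ± 0.27 and 1.11 ± 0.26), Mlkl, the executioner of necroptosis, in cDC1 (1.72 ± 0.32), Gbp5 in cDC2 (1.62 ± 0.31) and Slfn5 in pDC (1.78 ± 0.31). Of these calls, those of Gbp3 and Gbp7 in both cDC1 and cDC2 held whichever array was left out, and that of Slfn5 was lost without any 1 of 6 arrays (highest limma adjusted p 0.619). The medians of these 38 genes were 0.55, 0.51 and 0.51, against 0.78, 0.53 and 0.78 for the members. This list too was chosen with earlier results of these data known.

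In WT cells the receptor genes differed by cell type. Ifngr1 was higher in WT cDC1 than in WT pDC by 2.94 ± 0.29 and in WT cDC2 by 2.20 ± 0.29, while the type I receptor gene Ifnar2 was lower by 2.09 and 1.63 log2 units, and Ifnar1 by 1.33 and 1.21. Jak2 was higher in WT cDC1 by 1.5 ± 0.27 and in WT cDC2 by 1.53 ± 0.27. The double-stranded RNA receptor Tlr3 was higher in WT cDC1 than in WT pDC by 5.42 ± 0.30, and Tlr7 lower by 6.63 log2 units.

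Markers of other cell types moved in the same arrays as the members in cDC1 and in cDC2. Of 10 cDC2 markers, 4 (Cd209a, Itgam, Zeb2 and Sirpa) were called higher in cKO cDC1 and 0 lower, with list means of 5.59 to 6.06 on the cKO cDC1 arrays and 4.67 to 5.03 on the WT cDC1 arrays, against 7.95 to 8.39 in WT cDC2. Of the monocyte and neutrophil markers 1 of 10 tested (Csf1r), and of the red pulp macrophage markers 1 of 10 (Adgre1), were called higher in cKO cDC1. In cKO cDC2, 2 of 10 cDC1 markers (Naaa and Cd36) were called higher and 0 lower, with a median difference of 0.50 against 0.53 for the members, and list means of 6.50 to 7.16 on the cKO cDC2 arrays and 5.99 to 6.60 on the WT cDC2 arrays. Of the monocyte and neutrophil markers 3 (Ccr2, Csf1r and Lyz2) were called higher and 2 (Csf3r and Ace) lower there, with list means of 6.66 to 7.49 in cKO cDC2 and 6.19 to 7.39 in WT cDC2, and of the red pulp macrophage markers 1 (Cd163) was called higher. The median difference there was 0.90 for the monocyte and neutrophil markers and 0.67 for the T and NK cell markers (0 of 7 called). It was 0.33 for the red pulp macrophage markers and -0.19 to 0.17 for the remaining marker lists. The cDC2 markers themselves had 3 called higher (Itgam, Cd209a and Mgl2) and 2 lower (Clec4a4 and Tlr7) in cKO cDC2. The part of any of these in the members' differences was not tested. In pDC 0 of the genes on the 9 marker lists were called by limma in either direction.

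How firmly each call stands depended on single arrays. The count of 5 in cDC1 fell to 1 without the high-Xist arrays (Ifi27l2a), to 1 without WT cDC1 array 1, WT cDC1 array 2 or cKO cDC1 array 3, to 2 without cKO cDC1 array 1, and to 3 without WT cDC1 array 3 or cKO cDC1 array 4. Of all genes, 0.543% to 0.781% were called under these settings. In cDC1 of both genotypes the replicate numbers 1, 2 and 3 fall in the unlabelled sets A, B and C described below. With the number as a fixed block 9 members were called there (1.22% of all genes), Ifit1, Ifit2, Ifit3, Oas3 and Usp18 among them and Xaf1 not. The random block was another design, set on genotype and number together. It ties cell types within a genotype and no cKO array to a WT array. Under it 4 were called (Ifi27l2a, Zbp1, Oasl2 and Rsad2, with 0.864% of all genes called), and neither Ddx58, Xaf1 nor any of those 5 gains was. In pDC 0 members were called without the high-Xist arrays, without WT pDC array 1 or 2, or without cKO pDC array 2, 4 or 5. In cDC2, 1 member (Ifi27l2a) was called without cKO cDC2 array 1. The wild-type counts without the high-Xist arrays were 8 for cDC1 against cDC2 (3.54% of all genes), 4 for cDC1 against pDC (8.75%) and 9 for cDC2 against pDC (7.32%). That for cDC1 against cDC2 was also 8 without WT cDC2 array 3, and that for cDC1 against pDC was 3 without WT cDC1 array 3 and 5 without WT cDC1 array 1, cKO cDC1 array 3 or 4, any WT cDC2 array or WT pDC array 2 or 3.

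The arrays fell into 3 sets that no label names, called A, B and C here, each with arrays of all 6 groups: set C holds the 9 arrays with higher medians, and the other 14 were parted by whether they deviate with WT array 1 (A) or WT array 2 (B). The 3 sets were chosen after the data were seen, and the members' medians were compared within each. In cDC1 the median difference was 0.81 in set A, 0.70 in set B and 0.64 in set C. In cDC2 it was 0.25, 0.53 and 0.70, and in pDC 0.55, 0.60 and 0.82. Members above 0 in all 3 sets numbered 29 in cDC1, 24 in cDC2 and 25 in pDC, against 16.4%, 20.8% and 14.1% of all genes. Among the called members, Xaf1 had cDC1 differences of 1.48, 0.40 and 1.23 in sets A, B and C, and Ifi27l2a of 2.38, 2.87 and 2.94. With the 3 sets as a term, 10, 5 and 6 members were called higher in cDC1, cDC2 and pDC, and 1.74%, 4.6% and 0.214% of all genes were called.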

How the data were processed

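RNA of sorted splenic dendritic cells was labelled from small amounts with a WT Pico kit and read on 23 Affymetrix mouse gene arrays. The deposited values are intensities on a linear scale (3.785 to 13980.7), made by the authors with RMA in Affymetrix Expression Console, per the submitters' processing notes, with versions not given in the sources used here. Array medians ran from 29.3 to 41.2. From these intensities log2 was taken here. Of 28853 probe sets, 21789 had 1 gene symbol, 1621 had several and 5443 had none in the gene table used. Tested genes had a probe set exceeding its array's median on 3 or more arrays. Where several passed, the brightest on average was used. This left 12157 genes, and all 37 members with a probe set passed, none of them through a single group. Probe sets of near-identical family members (Oas1, Ifit3, Mx, Trim30) may share signal, which was not tested.

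limma 3.58.1 in R 4.3.3 was fitted with 6 group means over all 23 arrays (17 residual degrees of freedom), with Benjamini-Hochberg adjustment over 12157 genes and a threshold of 0.05, two-sided. The fit was also run on simulated data with independent noise and no array sets, which does not check the calls made here. Groups came from the genotype and cell type labels. Every member is accounted for. Values of every array are given for members called by genotype, the 3 smallest p where none was called, and for WT comparisons up to 4 called members a direction. The lists give up to 4 called genes a comparison, or else 2 by p. The members and lists were chosen with earlier results of these data known. Promoters came from RefSeq (GRCm38.p6).

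Replicate numbers were checked by the correlation of same-numbered arrays' deviations from their group means. It was 0.54, 0.44 and 0.49 between cKO and WT cDC1, and 0.38 to 0.70 between WT cell types. In these groups numbers 1, 2 and 3 fall in sets A, B and C. A pairing by number therefore cannot be told apart from a shared set. Between cKO and WT the correlation was 0.68, -0.08 and -0.03 in cDC2 and 0.64, -0.26 and -0.04 in pDC. There cKO numbers 1 and 2 fall in set A and number 3 in set B. The alternatives were other normalizations, filters, probe set rules, weights, sets, blocks and left-out arrays.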

Additional observations from a re-analysis of the deposited data

Results flagged for a closer look

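In the 3 cKO groups, of 4 or 5 arrays, a value was picked out where 1 array lay far from the rest of its group. The 114 sets of values tested were those of the 37 members and of the members' median per array in each group, and 10 were picked out, all of them single members, where chance flags about 1 in 20, and groups of 3 were not tested. On cKO cDC1 array 2, 6 members were lower than on the other 3 arrays of the group: Dhx58 at 6.41 (others 7.65 to 7.89), Rtp4 at 6.18 (6.70 to 6.74), Xaf1 at 5.08 (5.88 to 5.98), Parp12 at 8.12 (8.98 to 9.09), Trim21 at 5.75 (6.14 to 6.20) and Trim30a at 10.28 (10.88 to 10.92), all log2 intensities. That array is the 1 of its group in set B. On cKO cDC2 array 1, Ifit1 was at 5.27 (others 7.29 to 7.70) and Rtp4 at 8.49 (9.73 to 10.01). On cKO cDC2 array 2, Ifih1 was at 8.71 (8.0 to 8.12), and on cKO cDC2 array 3, Cmpk2 was at 6.29 (7.05 to 7.33).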

How the results depend on the processing

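Median member differences moved by less than the spread between arrays under every alternative run, and no called result reversed. The uncalled difference of Bcl6 in pDC, -0.15, was 0.0838 without the high-Xist arrays or without WT pDC array 1 alone. Counts of members called moved more. The share of all genes called under each setting is given in brackets, except for left-out arrays. In cDC1 (5 called) they were 3 with quantile normalization (0.938%), 2 with log2 of the value plus 16 (0.749%) and 18 with array weights (2.23%). The compared groups alone gave 3 (0.749%) and the fixed replicate block gave 9 (1.22%). The count was 1 without the high-Xist arrays (0.559%) and 10 with the 3 sets as a term (1.74%). In cDC2 (0 called) they were 1 with quantile normalization (1.84%), each array centred (1.7%), 2 sets (2.83%) and array weights (2.06%). They were 5 with 3 sets (4.6%) and 3 with 3 sets and no high-Xist arrays (3.06%). In pDC (1 called) they were 0 with each array centred (0.0329%), a stricter filter (0%), array weights (0.00823%) or the compared groups alone (0%). They were also 0 with the replicate block fixed (0%) or no high-Xist arrays (0.0247%). With 3 sets they were 6 (0.214%), and 8 with 3 sets and no high-Xist arrays (0.428%). The test of cDC1 against cDC2 effects (0 called) gave 1 with quantile normalization, centring, 2 sets, array weights, the random replicate block, 3 sets, and 3 sets without high-Xist arrays (0.378% to 1.22%), and 2 with the fixed block (0.329%). That of cDC1 against pDC effects (0 called) gave 1 under the same settings (0.354% to 0.798%) and 1 with the fixed block (0.313%), and that of cDC2 against pDC effects gave 1 with the fixed block (0.913%). In WT cells, cDC1 against cDC2 (13 called) gave 8 without high-Xist arrays (3.54%). WT cDC1 against pDC (8 called) gave 4 with no filter (7.87%), 4 with array weights (11.9%), 3 with the compared groups alone (8.24%) and 4 without high-Xist arrays (8.75%). WT cDC2 against pDC (11 called) gave 17 with the random replicate block (21.7%) and 19 with 3 sets (29.1%). With the fixed replicate block the WT counts were 18, 12 and 15 (16.3%, 22.5% and 15.9%). Leaving out 1 array gave 1 to 6, 0 to 1 and 0 to 1 for genotype in cDC1, cDC2 and pDC, 0, 0 to 1 and 0 for the differences of effects, and 8 to 15, 3 to 8 and 10 to 12 in WT cells. The causes were not tested. A term for sets or numbers shrinks the residual by construction, so larger counts under it are no independent support.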
